A study of Mus musculus with 4 samples.

Results

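The 10 genes Gpnmb, Spp1, Trem2, Fabp5, Arg1, Apoe, Lpl, Cd63, Cd9 and Ctsd are known for lipid uptake, transport and breakdown and for tissue repair in macrophages. They were taken by name as 10 of the 24783 genes of 1 single-cell count matrix, and all 10 had UMIs (unique molecular identifiers, 1 per captured RNA molecule) in every library. The matrix holds 4 droplet libraries of retina and choroid from wild-type mice, with rods depleted from the retina before the suspensions were mixed. The groups were aged CNV (over 18 months old, 3 days after laser photocoagulation, a model of choroidal neovascularisation, CNV), aged control (over 18 months, no CNV), young CNV (6 to 8 weeks old, 3 days after laser) and young control (6 to 8 weeks, no CNV). The series is about immune cells that enter the tissue after laser injury in adult and aged mice.

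Each group had 1 library, and the labels do not say how many animals went into it, so no difference was tested and every interval below is a 95% interval that covers counting error only. The libraries held 7731, 6676, 10867 and 11427 cells and 69011793, 50848238, 111908519 and 68966431 UMIs in aged CNV, aged control, young CNV and young control, and pairs of libraries shared 14 to 29 cell barcodes. Cells were clustered without the 10 genes, so that these genes did not shape the clusters, and clusters were named from marker genes of cell types, hence names such as macrophage/monocyte-like. That class held 479 cells in aged CNV, 148 in aged control, 1017 in young CNV and 160 in young control, and all 17 of its markers, such as Lyz2 and C1qa, were detected in every library. Levels are CPM, a gene's summed UMIs scaled to the same total of UMIs in every class and library.

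Macrophages that clear dead cells and debris take in large amounts of lipid. Trem2 is a surface receptor that senses lipids and lipoproteins, Cd9 and Cd63 are tetraspanins of the cell surface and of late endosomes, and Gpnmb is a transmembrane glycoprotein of lysosomes and melanosomes. Apoe carries lipid out of cells, Lpl releases fatty acids from lipoproteins, Fabp5 carries fatty acids inside the cell, and Ctsd is an aspartic protease of lysosomes. Spp1 encodes osteopontin, a secreted matrix protein, and Arg1 is the arginase of alternatively activated mouse macrophages. In the retina and choroid such cells gather at laser lesions, where vessels grow through the membrane under the retinal pigment epithelium (RPE).

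RefSeq promoter windows on GRCm38.p6, from 250 bases before to 50 bases after a gene start, were present for 7 of the 10 genes. Fabp5, Arg1 and Lpl were not among them. Both strands were searched for CACGTG, the E-box core that lysosomal gene regulators of the MiT family bind, for CATGTG, for the AP-1 motif TGANTCA, for TTCNNNGAA, for a pair of spaced repeats of the nuclear receptor half-site AGGTCA and for ACGTG, which overlaps CACGTG. The windows with an E-box core or TGANTCA are shown because Ctsd, Gpnmb and Trem2 stand for the lysosomal and receptor genes of the set. The sequences read 5′ to 3′ on the gene's own strand, with the motif in capitals.
Ctsd, 250 bases before the start, chr7:142387828-142388077, minus strand: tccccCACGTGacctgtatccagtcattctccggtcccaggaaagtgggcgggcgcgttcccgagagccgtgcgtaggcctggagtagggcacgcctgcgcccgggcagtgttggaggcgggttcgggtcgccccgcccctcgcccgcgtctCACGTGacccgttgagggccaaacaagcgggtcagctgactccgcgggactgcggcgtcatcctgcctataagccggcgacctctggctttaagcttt
Gpnmb, 30 bases around the start, chr6:49036514-49036543, plus strand: gccaggggcaagTGACTCAtgagcacgagt
Trem2, 30 bases around the start, chr17:48346380-48346409, plus strand: cttctccctcctTGAATCAcagcgcctacc
The Ctsd window held CACGTG 2 times, beginning 245 and 98 bases before the start, while 7.15% of the 32851 promoter windows in the table held it at least once. TGANTCA began at base 9 of the Gpnmb transcript and 9 bases before the Trem2 start, and 7.81% of windows held it. CATGTG occurred in the Cd9 window and in 14.2% of all windows, and ACGTG outside CACGTG in the Cd63 window, with 19.6% of all windows holding ACGTG. None of the 7 motifs was found in the 2 Spp1 windows or the 3 Apoe windows. A match is a string of letters and was not tied to any factor in these data.

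In young mice, macrophage/monocyte-like cells had more Spp1, Arg1, Gpnmb, Fabp5, Cd9, Ctsd, Trem2 and Cd63 after laser than without it, while Apoe and Lpl differed by less than 2-fold. Spp1 stood at 11836 CPM in young CNV and at 11.6 CPM in young control, a ratio of 1017 (635 to 1745). The young control level equals that of rod-like cells of the same library, 11.6 CPM, so this ratio is against a level that may be background. Its log2 value of 9.99 ran from 4.35 to 10.12 over the alternatives, lowest without the cluster led by Spp1, Gpnmb and Fabp5 described with the clusters. The other secreted-factor or enzyme gene, Arg1, stood at 84.1 CPM in young CNV and 1.37 CPM in young control, where 2 UMIs were counted, a ratio of 61.4 (16.9 to 507). Both were close to absent from these cells in young control.

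Gpnmb stood at 1279 CPM in young CNV and 76.7 CPM in young control, which was 16.7-fold higher (13.8 to 20.3). Of the 112 Gpnmb UMIs in young control, 90.2% came from 1 cell. Fabp5 stood at 2413 CPM in young CNV and 186 CPM in young control, 13.002-fold higher (11.54 to 14.7), and the same cell held 87.1% of the young control UMIs. Fabp5 has near-identical pseudogenes in the mouse, so its counts depend on how shared reads were assigned, and the sources used here do not say. The endosomal and lysosomal genes differed by less: Ctsd was at 3880.4 CPM in young CNV and 877 CPM in young control, 4.43-fold higher (4.19 to 4.68). Cd63 was at 1038 CPM in young CNV and 438 CPM in young control, 2.37-fold higher (2.19 to 2.57).

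The surface genes Cd9 and Trem2 were also higher after laser. Cd9 was at 530.1 CPM in young CNV and 118 CPM in young control, 4.50-fold higher (3.87 to 5.27), and Trem2 at 659 CPM in young CNV and 232 CPM in young control, 2.85-fold higher (2.55 to 3.18). Apoe, already among the most counted genes of the class without laser, was at 27837 CPM in young CNV and 18318 CPM in young control, a ratio of 1.52 (1.501 to 1.54). Lpl was at 265 CPM in young CNV and 303 CPM in young control, a ratio of 0.873 (0.790 to 0.965). Of the 10 genes 8 were at least 2-fold higher and 0 at least 2-fold lower, where 6.45% of the 12552 genes with at least 20 UMIs over both libraries were 2-fold higher and 8.33% were 2-fold lower. The 10 genes were chosen with earlier results of these data known. Such counts, here and in the comparisons below, are therefore a description and no independent support for the set. The median log2 ratio was 2.16 over the 10 genes and -0.11 over all measured genes. Such counts were not confined to this class. In rod-like cells 9 of 10 genes were higher and 1 lower (median 1.99), beside 7.14% and 5.21% of 13868 measured genes. Cone-like cells had 6 of 8 higher beside 2.36% of 10127. Melanocyte-like cells had 1 of 9 higher and 1 lower, beside 4.57% and 5.33% of 9769. The source of these ratios was not tested.

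**Figure D1:**
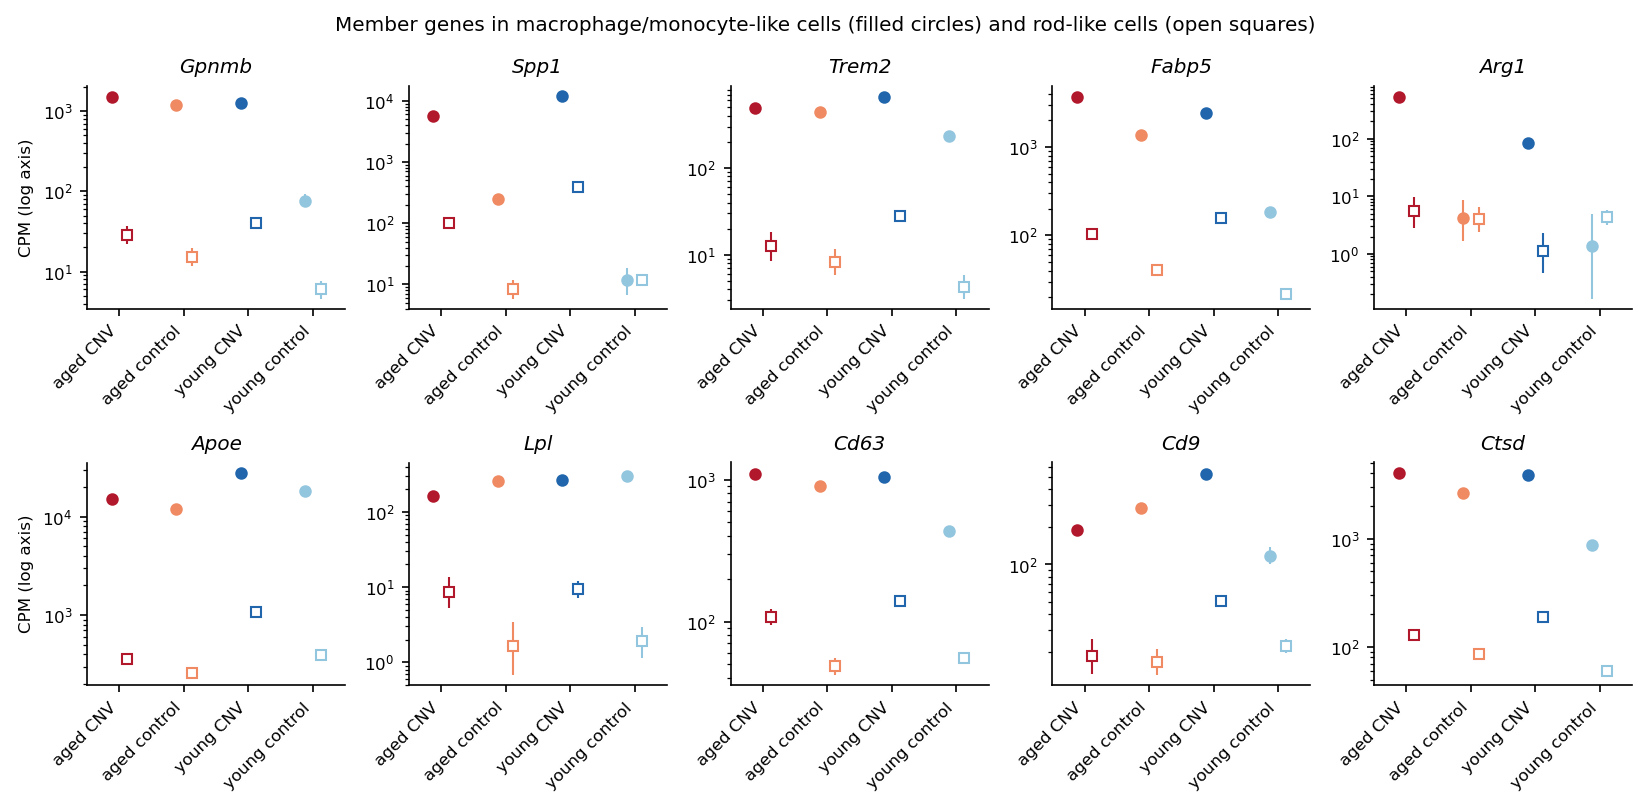
CPM on a log axis of each of the 10 genes in macrophage/monocyte-like cells (filled circles) and rod-like cells (open squares) in the 4 libraries, with exact Poisson 95% intervals. Gpnmb, Trem2, Fabp5, Cd63, Cd9 and Ctsd are lowest in young control among macrophage/monocyte-like cells, Arg1 is near 0 in both controls, and the levels in rod-like cells are also higher after laser for most genes.

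In aged mice the same comparison gave fewer differences of that size. Arg1 stood at 526 CPM in aged CNV and 4.201 CPM in aged control, 125-fold higher (60.7 to 312). Spp1 stood at 5622 CPM in aged CNV and 253 CPM in aged control, 22.3-fold higher (20.2 to 24.6). Fabp5 was at 3701 CPM in aged CNV and 1366 CPM in aged control, 2.71-fold higher (2.59 to 2.83). These 3 genes were the ones past 2-fold.

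Gpnmb was nearly level, at 1501 CPM in aged CNV and 1208 CPM in aged control, a ratio of 1.24 (1.18 to 1.31). Trem2 was at 486 CPM in aged CNV and 442 CPM in aged control, and Cd63 at 1092 CPM in aged CNV and 905 CPM in aged control, with ratios of 1.10 (1.01 to 1.198) and 1.21 (1.14 to 1.28). Ctsd was at 4000.4 CPM in aged CNV and 2653 CPM in aged control, a ratio of 1.51 (1.46 to 1.56). The lipid carrier Apoe was at 14988 CPM in aged CNV and 11822 CPM in aged control, a ratio of 1.27 (1.25 to 1.29). Cd9 and Lpl were lower after laser. Cd9 was at 188 CPM in aged CNV and 285 CPM in aged control, a ratio of 0.658 (0.588 to 0.737), and Lpl at 163 CPM in aged CNV and 259 CPM in aged control, a ratio of 0.631 (0.560 to 0.712).

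In this comparison 3 of the 10 genes were at least 2-fold higher and 0 at least 2-fold lower, beside 6.26% of 11286 measured genes higher and 4.79% lower. The median log2 ratio was 0.33 over the 10 genes and -0.06 over all measured genes. With both laser comparisons side by side, Cd9 had a log2 ratio of 2.17 in young and -0.60 in aged mice, and with 1 library per group this difference was not tested. Each age has its own control library, so the young and aged laser ratios share no sample.

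Without laser, macrophage/monocyte-like cells of aged mice held more of 7 of the 9 genes that could be measured than those of young mice. Spp1 was 21.7-fold higher in aged control than in young control (13.4 to 37.6), Gpnmb 15.7-fold (13.01 to 19.2) and Fabp5 7.36-fold (6.49 to 8.38). The ratios were 3.03 (2.84 to 3.22) for Ctsd, 2.42 (2.03 to 2.90) for Cd9 and 2.07 (1.88 to 2.27) for Cd63, and 1.91 (1.68 to 2.18) for Trem2. The Cd63 ratio fell below 2 when the libraries were scaled by trimmed means, at 0.89 on the log2 scale.

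The genes of lipid delivery did not follow. Lpl had a ratio of 0.853 (0.745 to 0.976) and Apoe of 0.645 (0.634 to 0.657) in aged control over young control. Arg1 had 7 UMIs in aged control and 2 in young control, under the minimum of 20. So 6 of 9 genes were at least 2-fold higher and 0 lower, beside 9.12% of 9724 measured genes higher and 6.15% lower, with median log2 ratios of 1.27 over the 9 genes and 0.16 over all measured genes. The aged control library also differed from young control in the makeup of the class, which is described with the clusters.

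After laser, the cells of aged mice differed from those of young mice mainly in Arg1, Spp1 and Cd9. Arg1 was 6.26-fold higher in aged CNV than in young CNV (5.83 to 6.72). Spp1 had a ratio of 0.475 (0.469 to 0.481) and Cd9 of 0.354 (0.329 to 0.380), both lower in aged CNV. Apoe had a ratio of 0.538 (0.534 to 0.543), Lpl of 0.616 (0.569 to 0.667) and Trem2 of 0.738 (0.704 to 0.773), while Fabp5 was 1.53-fold higher (1.51 to 1.56). The makeup of the class differed as well. A cluster led by Cd209d, Fcna and Ccl8 held 24.8% of the class in aged CNV and 0% in young CNV. One led by Cd163, F13a1 and Cd209f held 4.59% and 26.2%. The part of this makeup in the ratios was not tested.

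Gpnmb, Ctsd and Cd63 lay within 1.2-fold of each other in the CNV libraries, at log2 ratios of 0.23, 0.04 and 0.07. Their sign turned negative with trimmed-mean scaling, at -0.01, -0.19 and -0.16, and with median-of-ratios scaling the values were 0.01, -0.18 and -0.15. Of the 10 genes 1 was at least 2-fold higher in aged CNV and 2 at least 2-fold lower, where 9.55% of 13211 measured genes were higher and 4.97% lower. The median log2 ratio was -0.20 over the 10 genes and 0.23 over all measured genes. This comparison and the ones before it share libraries in pairs, so the 4 sets of ratios are not independent of each other.

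**Figure D2:**
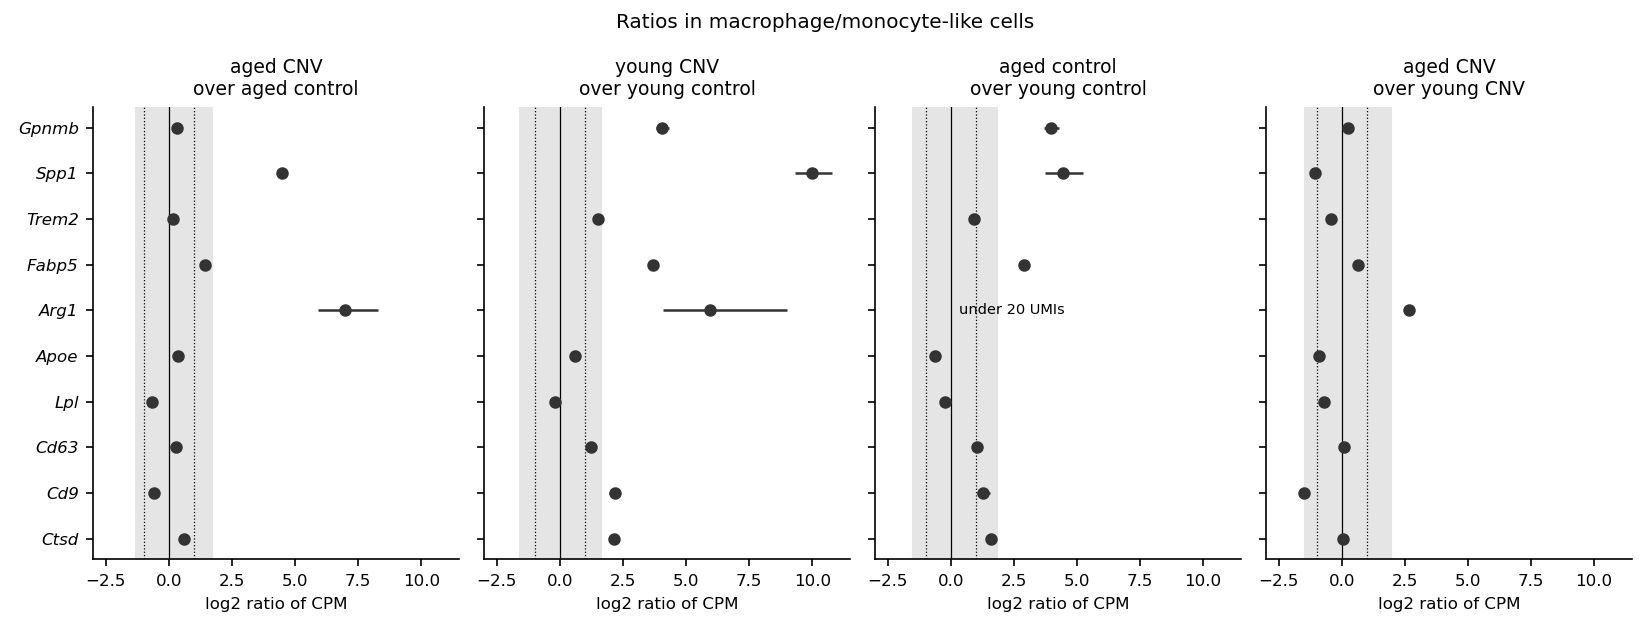
Log2 ratios of CPM of the 10 genes in macrophage/monocyte-like cells for the 4 comparisons, with exact 95% counting intervals, dotted lines at 2-fold and a grey band over the central 95% of all measured genes. Spp1 and Arg1 lie right of the band after laser at both ages, Spp1, Gpnmb and Fabp5 do so between the controls, and Cd9 lies on opposite sides of 0 in the aged and young laser comparisons.

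Scaling bears on the small ratios. Trimmed-mean scaling shifted all log2 ratios of the class by 0.13 (young laser), 0.06 (aged laser), -0.16 (controls) and -0.24 (CNV libraries). Median-of-ratios scaling moved them by 0.12, 0.06, -0.16 and -0.23 in the same order. Besides Gpnmb, Ctsd and Cd63 between the CNV libraries, none of the 10 genes turned its sign under either scaling.

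The class was made of 7 clusters, and most of the RNA of Gpnmb, Spp1, Fabp5 and Arg1 came from 1 of them. That cluster was led by Spp1, Gpnmb and Fabp5 when all genes were compared with other clusters, although none of the 10 genes entered the clustering. It held 113 cells in aged CNV, 40 in aged control, 198 in young CNV and 1 in young control. Its share of macrophage/monocyte-like cells was 23.6% (19.9 to 27.7) in aged CNV, 27.0% (20.1 to 34.9) in aged control, 19.5% (17.1 to 22.0) in young CNV and 0.625% (0.0158 to 3.43) in young control, by exact Clopper-Pearson intervals. The aged control share was the highest of the 4, with an interval that overlapped those of both CNV libraries, and the young control share lay far below the other 3. The cluster had 14 of the 17 class markers at 2-fold or more. The naming thresholds were set after the data were seen, and whether the cluster is counted in the class decides many of the ratios above, so values without it are given further on.

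In aged CNV this cluster held 97.0% of the Gpnmb, 97.9% of the Spp1, 96.3% of the Fabp5 and 95.1% of the Arg1 UMIs of the class. For young CNV the shares were 97.3%, 98.6%, 95.3% and 97.4%. In aged control it held 99.0% of Gpnmb, 95.5% of Spp1 and 97.1% of Fabp5, and 0 of the 7 Arg1 UMIs. The other genes were spread more widely: in young CNV the cluster held 88.1% of Cd9, 76.1% of Ctsd, 71.2% of Cd63, 66.5% of Trem2, 38.7% of Apoe and 30.8% of Lpl UMIs.

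Within this cluster Gpnmb was close to level across the libraries, at 4391 CPM in aged CNV, 3873 CPM in aged control and 3918 CPM in young CNV. Ctsd, at 8703, 7385 and 9292 CPM, and Cd63, at 2172, 2406 and 2328 CPM in the same order, also lay within 1.3-fold. Spp1 and Arg1 did not. Spp1 was at 16608 CPM in aged CNV and 782 CPM in aged control, 21.2-fold higher (19.2 to 23.5), and at 36749.9 CPM in young CNV.

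Arg1 was at 1508 CPM in aged CNV and had 0 UMIs in the 40 aged control cells. With a floor of 3 counts, or 5.84 CPM, put in for the 0, the ratio was 258. The counting interval of this ratio began at 210. In young CNV the cluster had 258 CPM of Arg1. A UMI of Arg1 was found in 43.4% of the cluster's cells in aged CNV, 0% in aged control and 34.3% in young CNV. Fabp5 was at 10747 CPM in aged CNV and 4297 CPM in aged control, 2.50-fold higher (2.39 to 2.62), and at 7240.0 CPM in young CNV. Cells of this cluster were thus present in aged eyes without laser, with Gpnmb, Ctsd and Cd63 as in the CNV libraries but with low Spp1 and no Arg1 UMI.

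Cd9, Trem2 and Apoe were lower in the cluster in aged CNV than in either other library. Cd9 was at 472 CPM in aged CNV, 805 CPM in aged control and 1471 CPM in young CNV. Trem2 was at 920.5 CPM in aged CNV, 1196 CPM in aged control and 1381 CPM in young CNV. For Apoe the levels were 20215 CPM in aged CNV, 25697 CPM in aged control and 33881 CPM in young CNV. Lpl was at 190.1, 181 and 257 CPM in the same order, with an aged CNV over aged control ratio of 1.05 (0.829 to 1.34).

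**Figure D3:**
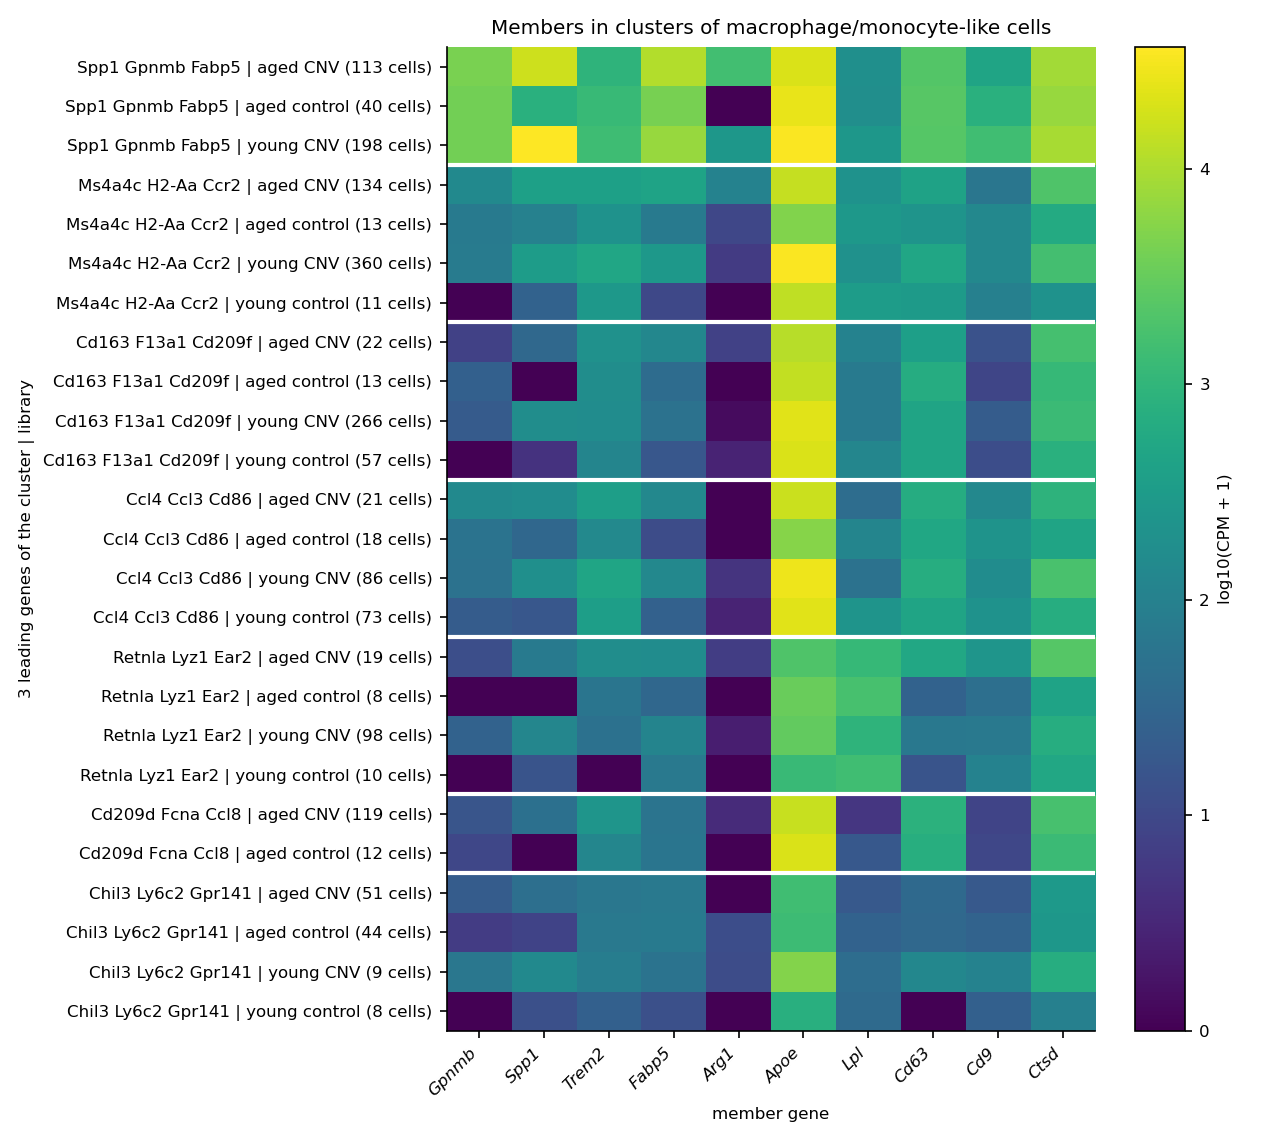
Heat map of log10(CPM + 1) of the 10 genes in each cluster of macrophage/monocyte-like cells and library with at least 8 cells, labelled by the cluster's 3 leading genes. The top rows, the cluster led by Spp1, Gpnmb and Fabp5, hold the high Gpnmb, Fabp5 and Spp1 levels, its aged control row has low Spp1 and no Arg1, and Lpl is highest in the cluster led by Retnla, Lyz1 and Ear2.

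At a finer resolution the cluster fell into a part led by Spp1, Apoc2 and Fabp5 and a part led by Mmp12, Atp6v0d2 and Gpnmb. Mmp12 is a macrophage elastase and Atp6v0d2 a subunit of the proton pump of lysosomes. The Mmp12-led part made up 55.8% of the cluster in aged CNV (63 cells), 87.5% in aged control (35 cells) and 7.07% in young CNV (14 cells). The Spp1-led part made up 40.7% in aged CNV (46 cells), 12.5% in aged control (5 cells) and 91.4% in young CNV (181 cells).

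In the Mmp12-led part Spp1 was at 18428 CPM in aged CNV, 785 CPM in aged control and 19069 CPM in young CNV. Arg1 there was at 1594 CPM in aged CNV, 0 CPM in aged control and 13.9 CPM in young CNV. In the Spp1-led part Arg1 was at 1462 CPM in aged CNV and 285 CPM in young CNV. Arg1 thus differed between the CNV libraries in both parts, and Spp1 differed between aged CNV and aged control within the Mmp12-led part. Lpl stood out in the young CNV cells of the Mmp12-led part, at 866 CPM from 14 cells.

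Beside Gpnmb, Fabp5 and Spp1, other genes of lipid and lysosome handling separated this cluster from the other macrophage/monocyte-like cells. Lgals3, a galectin of phagocytes, was at 5794 CPM in the cluster and 921 CPM in the other cells in aged CNV, 5725 and 1048 CPM in aged control, and 4801 and 879 CPM in young CNV. The scavenger receptor gene Cd163, of resident macrophages, had 1.30 CPM in the cluster and 636 CPM in the other cells in aged CNV, 0 and 408 CPM in aged control, and 2.83 and 539 CPM in young CNV. Not all resident macrophage genes went this way. Pf4 was at 2039 CPM in the cluster and 1152 CPM in the other cells in aged CNV, but at 23.3 and 559 CPM in aged control and 800 and 1192 CPM in young CNV. In aged control Stab1 (364 and 200 CPM) and Gas6 (257 and 185 CPM) were higher in the cluster. The 11 resident macrophage genes summed to 3185 CPM in the cluster in aged CNV, much of it Pf4, 1219.8 CPM in aged control and 1647 CPM in young CNV. In the other clusters of aged CNV they summed to 1208 to 18515 CPM. Summed microglia markers were 111, 268 and 410.1 CPM in the cluster in aged CNV, aged control and young CNV. These are descriptions of a cluster and no test of it.

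Outside this cluster the levels of Spp1, Gpnmb and Fabp5 were far lower and came closer to those of rod-like cells, which should lack these genes and so show the level that free RNA in the suspension can give. The other 6 clusters together had 174 CPM of Spp1 in aged CNV, 16.5 CPM in aged control, 241 CPM in young CNV and 11.8 CPM in young control. Rod-like cells had 102, 8.34, 396 and 11.6 CPM in the same order. Fabp5 in those clusters was at 206, 58.2, 167 and 24.4 CPM, where rod-like cells had 104, 40.8, 158 and 22.0 CPM. Gpnmb was at 68.1, 18.2, 50.4 and 7.66 CPM outside the cluster and at 28.8, 15.3, 39.9 and 6.01 CPM in rod-like cells. All 3 genes were thus above rod-like cells in aged CNV, with intervals of 159 to 189 CPM for Spp1, 191 to 223 CPM for Fabp5 and 59.2 to 78.0 CPM for Gpnmb. Spp1 in young CNV was below rod-like cells in CPM. A UMI of Spp1 was found there in 82.3% of the cells outside the cluster, at a median of 10632 UMIs per cell. In rod-like cells the share was 53.8% at a median of 1942 UMIs. With depths this unlike, CPM cannot tell free RNA from expression, and the source of this Spp1 was not tested.

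Trem2, Apoe, Ctsd, Cd63 and Lpl stood well above that background. Trem2 outside the cluster was at 271 CPM in aged CNV, 105 CPM in aged control, 323 CPM in young CNV and 206 CPM in young control, and rod-like cells had 12.8, 8.34, 28.2 and 4.31 CPM. Lpl outside the cluster was at 149.8, 293, 269 and 309 CPM, where rod-like cells had 8.67, 1.67, 9.41 and 1.90 CPM. Lpl was highest in the cluster led by Retnla, Lyz1 and Ear2, at 1152 CPM in aged CNV, 1745 CPM in aged control, 949 CPM in young CNV and 1453 CPM in young control, on 19, 8, 98 and 10 cells. In the cluster led by Chil3 and Ly6c2, a gene of circulating monocytes, Trem2 was at 64.4 CPM in aged CNV, 68.7 CPM in aged control, 84.7 CPM in young CNV and 24.3 CPM in young control, and Apoe lay below its level in the whole class.

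With the cluster led by Spp1, Gpnmb and Fabp5 left out, the counts of genes past 2-fold took another pattern, which was looked at after the data were seen. In young mice 5 of 10 genes were at least 2-fold higher after laser, beside 4.64% of 11865 measured genes in the same cells, and Cd9 had a log2 ratio of -0.19. Those 5 were Spp1, Gpnmb, Fabp5, Arg1 and Ctsd, and the levels of Spp1, Gpnmb and Fabp5 in these young CNV cells are the ones set beside rod-like cells above. Arg1 in these cells rested on 29 UMIs in young CNV and 2 in young control. Its levels of 3.19 CPM (2.13 to 4.58) and 1.39 CPM (0.169 to 5.03) overlapped in interval. Rod-like cells had 1.14 and 4.31 CPM of Arg1. In aged mice 8 of 10 were at least 2-fold higher after laser, beside 8.00% of 10446 measured genes, with Trem2 at 1.37 and Ctsd at 1.62. Between the controls 2 of 9 were higher and 1 lower, beside 9.88% and 6.64% of 9237 measured genes, and Ctsd, Cd63, Cd9 and Trem2 had log2 ratios of -0.26, -0.70, -0.99 and -0.97. Of the 108 aged control cells left, 44 belonged to the monocyte cluster led by Chil3 and Ly6c2, against 51 of 366 in aged CNV, 9 of 819 in young CNV and 8 of 159 in young control, and the part of this makeup in the ratios was not tested.

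Single cells showed the genes together. With every cell thinned to 1000 UMIs, which left out 5 cells in aged CNV, 3 in aged control, 4 in young CNV and 1 in young control, 6 or more of the 10 genes were detected in 16.7% of macrophage/monocyte-like cells in aged CNV (13.4 to 20.3). The share was 15.2% (9.76 to 22.1) in aged control, 17.0% (14.7 to 19.4) in young CNV and 0.629% (0.0159 to 3.45) in young control. The median was 3, 2, 3 and 2 genes per cell in the same order. So the 3 libraries that held the cluster also held cells with most of these genes, and young control held 1 such cell.

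Fabp5 was found in 72.4% of aged CNV cells with Gpnmb (63.3 to 80.3) and in 12.8% of those without (9.56 to 16.8). In aged control the shares were 63.3% (43.9 to 80.1) and 7.83% (3.64 to 14.3), and in young CNV 72.0% (65.1 to 78.2) and 12.2% (10.0 to 14.6). Spp1 was found in 62.9% of Gpnmb-positive cells in aged CNV, 33.3% in aged control and 71.5% in young CNV. Lpl did not go with Gpnmb: it was found in 11.2% of cells with and 8.10% of cells without Gpnmb in aged CNV, and in 10.4% and 12.6% in young CNV, with 13.3% and 9.57% in aged control. Cells of 1 library are no replicates, so these shares describe the libraries.

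**Figure D4:**
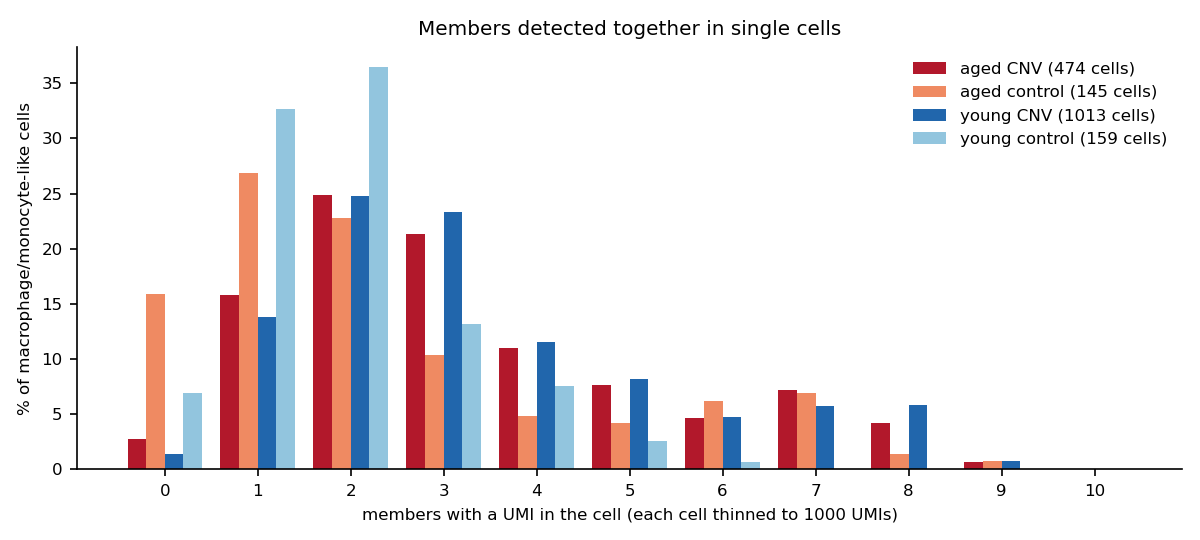
Percent of macrophage/monocyte-like cells of each library (bars) by how many of the 10 genes had a UMI, with each cell thinned to 1000 UMIs. Aged CNV, aged control and young CNV have a second group of cells with 6 or more genes, 16.7%, 15.2% and 17.0% of cells, where young control has 0.629%.

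The share of cells with a UMI was also set beside that of rod-like cells. In macrophage/monocyte-like cells thinned to 1000 UMIs, Spp1 was detected in 24.1% in aged CNV, 8.97% in aged control, 32.7% in young CNV and 0.629% in young control. Rod-like cells thinned in the same way had 10.3%, 0.861%, 33.2% and 1.06%. Unthinned, the shares were 48.9%, 20.3%, 85.5% and 10.0% of macrophage/monocyte-like cells at median depths of 8292, 10039, 11323 and 8904 UMIs, and 22.3%, 2.30%, 53.8% and 1.95% of rod-like cells at 2705, 3286.5, 1942 and 1329 UMIs. Spp1 UMIs in single cells of young CNV cannot by themselves tell expression from free RNA, and their source was not tested. The CPM of Spp1 in young CNV was 36749.9 in the cluster led by Spp1 and 396 in rod-like cells. Gpnmb was detected in 24.5%, 20.7%, 19.1% and 1.89% of thinned macrophage/monocyte-like cells and in 2.03%, 1.81%, 3.96% and 0.590% of thinned rod-like cells in the same order of libraries.

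Across the 20 classes with at least 20 cells in 2 or more libraries, macrophage/monocyte-like cells had the highest mean level of Apoe, Arg1, Fabp5 and Lpl and came second for Ctsd, Gpnmb, Spp1 and Trem2. For Cd63 and Cd9 they were not among the top 4. Microglia-like cells, resident macrophages of the retina, led for Ctsd at 8802 to 11329 CPM and for Trem2 at 1074 to 1809 CPM over 3 libraries, above the ranges of macrophage/monocyte-like cells of 877 to 4000.4 and 232 to 659 CPM. They also led for Spp1 at 2076 to 22149 CPM, a range that overlapped that of macrophage/monocyte-like cells. Macrophage/monocyte-like cells and the class next to them overlapped in range for Apoe, Arg1, Fabp5 and Lpl.

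Microglia-like cells were few, with 38 in aged CNV, 26 in aged control, 20 in young CNV and 14 in young control, the last under the minimum of 20. Spp1 in them was at 16223 CPM in aged CNV and 2076 CPM in aged control, 7.81-fold higher (7.23 to 8.46), and at 22149 CPM in young CNV. Fabp5 was at 2392 CPM in aged CNV and 605 CPM in aged control, 3.95-fold higher (3.41 to 4.60), and at 1196 CPM in young CNV. Apoe went the other way, at 3644 CPM in aged CNV and 21760.5 CPM in aged control, a ratio of 0.167 (0.161 to 0.174), as did Gpnmb at 781 CPM in aged CNV and 1709 CPM in aged control, a ratio of 0.457 (0.409 to 0.511).

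Gpnmb was highest in melanocyte-like cells, whose pigment granules hold the protein, at 3019 CPM in aged CNV, 3051 CPM in young CNV and 2192 CPM in young control, with 12 cells and no value in aged control. Melanocyte-like cells also led for Cd63 at 2754 to 3034 CPM. In RPE-like cells Gpnmb was at 414 CPM in aged CNV, 119.5 CPM in aged control, 153 CPM in young CNV and 153 CPM in young control, so that only the aged CNV library stood apart. Ctsd in RPE-like cells was at 4124 CPM in aged CNV, 2331 CPM in aged control, 2499 CPM in young CNV and 1959.6 CPM in young control. Melanocyte markers in the macrophage/monocyte-like class were low: the 9 summed to 358 CPM in aged CNV, 387 CPM in aged control, 290 CPM in young CNV and 266 CPM in young control, with 3 of 9 at 0 in each control. The 9 include Mitf and Kit, so not all of this sum need be pigment cell RNA.

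Neutrophil-like cells of aged CNV had Cd63 at 2403 CPM and Gpnmb at 531 CPM, where those of aged control had 83.3 and 8.33 CPM. Different clusters made up the class: 181 of 203 aged CNV cells lay in a cluster led by Il1r2, S100a8 and Acod1, and 26 of 28 aged control cells in one led by S100a9, Retnlg and S100a8. Within the S100a9-led cluster Cd63 was at 321 CPM in aged CNV (22 cells) and 71.1 CPM in aged control. In the Il1r2-led cluster of young CNV, with 18 cells, Cd63 was at 1578 CPM and Gpnmb had 1 UMI.

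Arg1 and Fabp5 had a further site in epithelial-like cells. Arg1 there was at 101 CPM in aged CNV, 33.0 CPM in aged control, 53.7 CPM in young CNV and 56.5 CPM in young control, and these cells held 88.2% of all Arg1 UMIs of young control. Fabp5 in them was at 417, 57.7, 799 and 854 CPM in the same order. Spp1 was also high in pericyte/smooth-muscle-like cells, at 2073 CPM in aged CNV, 583 CPM in aged control, 1320 CPM in young CNV and 1577 CPM in young control, and in skeletal-muscle-like cells at 5534 CPM in aged CNV, 831 CPM in young CNV and 60.0 CPM in young control.

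Much Lpl RNA lay outside macrophage/monocyte-like cells. In aged CNV 76.8% of all Lpl UMIs came from 47 cells of an unnamed cluster led by Cfd, Car3 and Hp, with the adipocyte hormone gene Adipoq among its leading genes, at 13490 CPM. This cluster had 1 cell in young CNV and 0 in both controls. In endothelial-like cells, where the enzyme acts on the vessel wall, Lpl was at 184 CPM in aged CNV, 18.5 CPM in aged control, 248.9 CPM in young CNV and 137 CPM in young control.

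**Figure D5:**
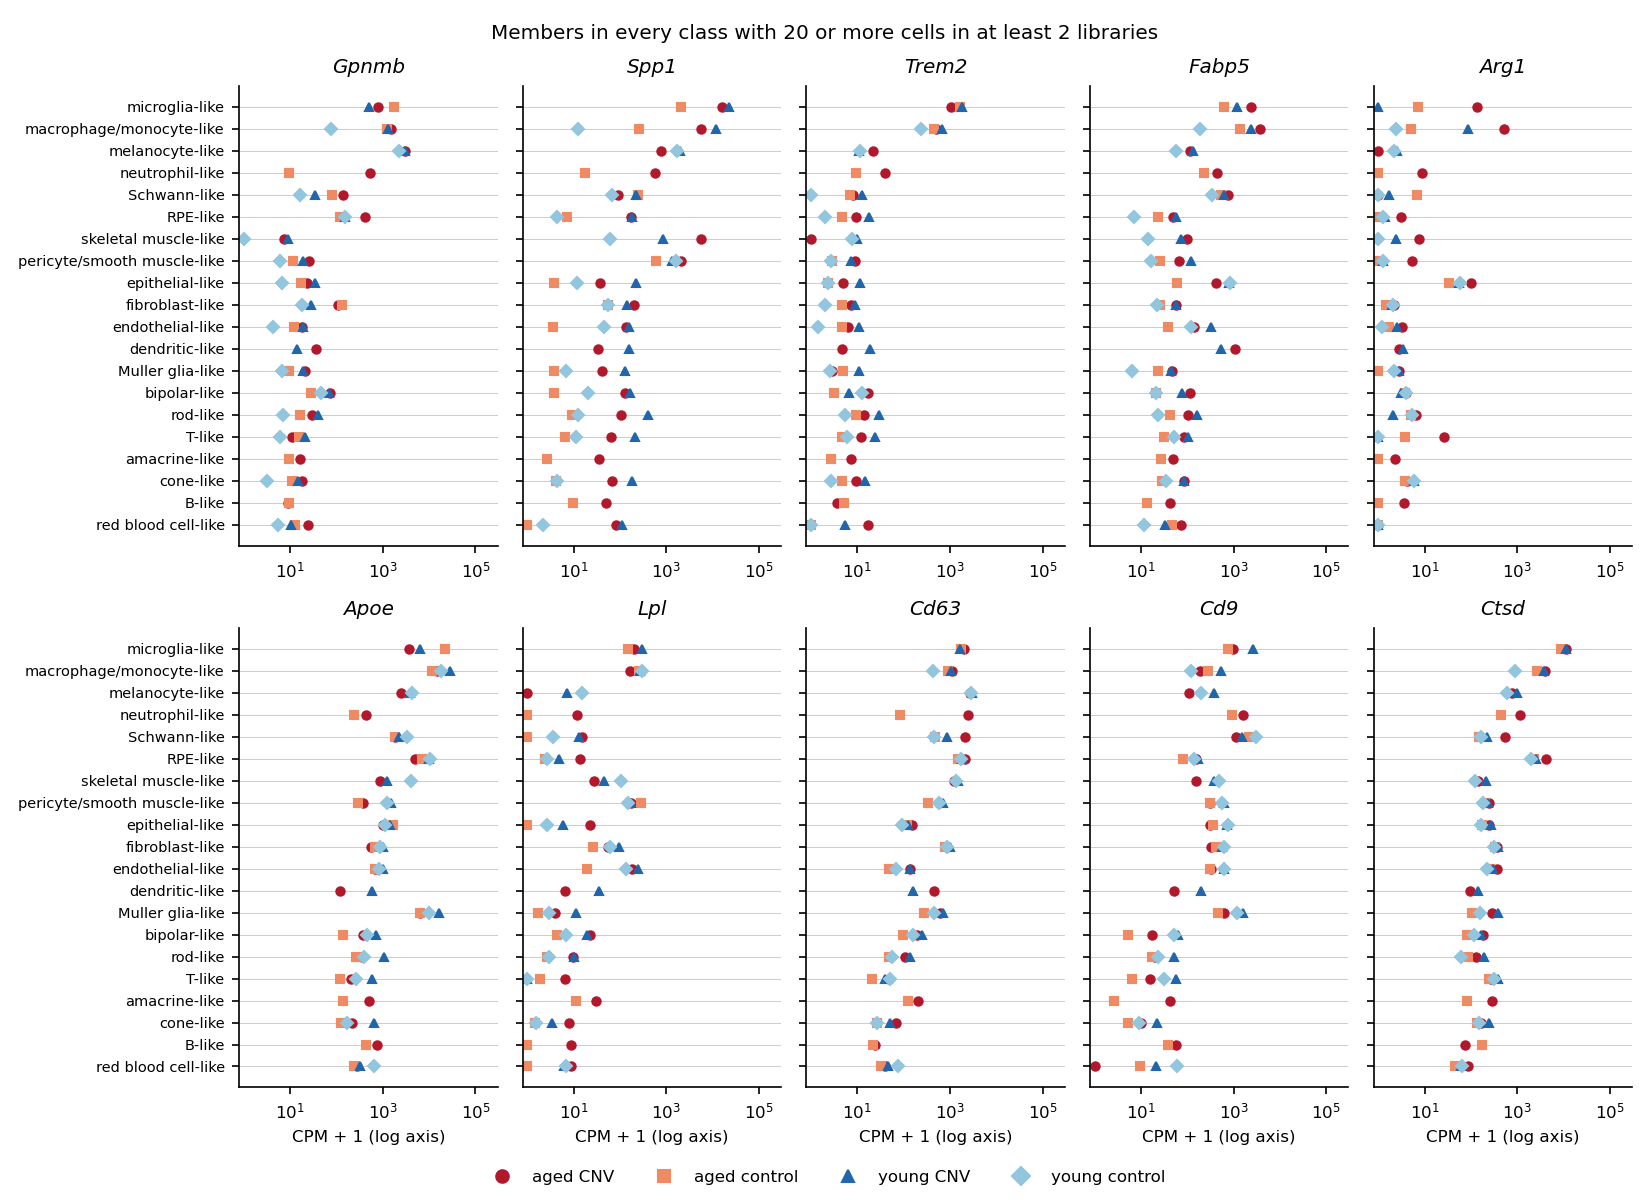
CPM + 1 on a log axis of the 10 genes in every class with at least 20 cells in 2 or more libraries, 1 point per library. Trem2 and Ctsd are highest in microglia-like and then macrophage/monocyte-like cells, Gpnmb and Cd63 in melanocyte-like cells, and Apoe, Cd63 and Cd9 are spread over many classes.

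The genes whose pattern was most like each of the 10 were found by Pearson's r of log2(CPM + 5) over 69 class and library points of 20 classes, among 17595 genes. The points share libraries and depth, so r is a description. Trem2 was closest to the complement genes C1qc, C1qa and C1qb at 0.963, 0.952 and 0.9496. Ctsd was closest to Ctsb, Plin2 and Ctsa at 0.874, 0.858 and 0.847, and Gpnmb to Mitf, Ctsb and Uap1l1 at 0.829, 0.823 and 0.823. Fabp5 was closest to Lgals3, Oas1a and Oas1g at 0.824, 0.812 and 0.723, and Cd63 to Timp2, Lhfpl2 and Lrp1 at 0.840, 0.826 and 0.809.

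For the other genes the nearest patterns were Sat1, Marcks and Ltbr for Cd9 at 0.847, 0.843 and 0.814, and Trim47, Fblim1 and Slco2b1 for Lpl at 0.829, 0.775 and 0.766. Apoe was closest to Glul, Mertk and Prdx1 at 0.765, 0.759 and 0.745. The lowest values were those of Spp1, with Ctsz, Grn and C1qb at 0.697, 0.662 and 0.657, and of Arg1, with Cbr2, Nectin4 and Gm47754 at 0.694, 0.691 and 0.656.

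Other genes of lipid and lysosome handling in phagocytes followed in part in macrophage/monocyte-like cells. Of 45 such genes in the table, 15 of 45 measured were at least 2-fold higher and 2 lower in the young laser comparison, with a median log2 ratio of 0.65. In the aged laser comparison 7 of 44 were higher and 4 lower (median 0.33), between controls 11 of 42 were higher and 1 lower (median 0.26), and between the CNV libraries 2 of 45 were higher and 2 lower (median 0.08). Of all measured genes 6.45% were higher and 8.33% lower in the young laser comparison, and 6.26% and 4.79% in the aged one. Between controls the shares were 9.12% and 6.15%, and between the CNV libraries 9.55% and 4.97%. The counts between the CNV libraries are thus no more than these shares give. The list was chosen with earlier results of these data known. Acp5, a lysosomal acid phosphatase, was at 149 CPM in young CNV and 9.59 CPM in young control, 15.5-fold higher (9.23 to 28.5). Ctsl, a lysosomal cysteine protease, was 3.73-fold higher in young CNV than in young control (3.39 to 4.12) and 4.37-fold higher in aged CNV than in aged control (3.96 to 4.84).

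Hmox1, which breaks down haem, was 4.19-fold higher in aged CNV than in aged control (3.65 to 4.84), and Plin2, a coat protein of lipid droplets, was 2.68-fold higher (2.44 to 2.96). Atp6v0d2 stood at 101 CPM in aged CNV and 257 CPM in aged control, a ratio of 0.392 (0.343 to 0.448), and was 10.1-fold higher in aged control than in young control (7.24 to 14.6). Ch25h, which makes 25-hydroxycholesterol, was lower in young CNV than in young control, with a ratio of 0.219 (0.151 to 0.321). Olr1, a receptor for oxidised lipoprotein, was 2.40-fold higher in aged CNV than in young CNV (2.0006 to 2.87).

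Of the hypoxia and glycolysis genes 2 of 12 were at least 2-fold higher in the young laser comparison and 4 of 12 in the aged one, with 0 lower in either. Vegfa, the main growth factor of new vessels, was at 49.6 CPM in aged CNV and 7.20 CPM in aged control, 6.89-fold higher (3.87 to 13.5), and 2.79-fold higher in aged CNV than in young CNV (2.32 to 3.36). Of 13 monocyte genes 9 were higher in aged control than in young control and 0 lower, and 9 of 11 genes of resident macrophages were lower and 0 higher, such as Folr2 with a ratio of 0.2497 (0.214 to 0.291). Between aged CNV and aged control 6 of 13 monocyte genes were lower and 4 of 11 resident genes higher, such as Pf4 at 3.67-fold (3.39 to 3.99). Of 14 genes of alternative activation, 11 were measured in each laser comparison, and 1 was higher and 1 lower in young mice, and 2 higher and 0 lower in aged mice. Of 12 measured inflammatory genes 1 was higher and 5 lower in the young laser comparison, and 0 higher and 2 lower in the aged one. Beside these counts, 6.45% of all measured genes were higher and 8.33% lower in the young laser comparison. The shares were 6.26% and 4.79% in the aged one and 9.12% and 6.15% between controls. A count of 1 gene from lists of this size is near these shares.

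Summed markers of other cell types in the macrophage/monocyte-like class differed between the libraries. The 9 rod markers summed to 36.3 CPM in aged CNV, 146 CPM in aged control, 130 CPM in young CNV and 590.4 CPM in young control, with 1 at 0 in aged CNV and none in the others. The 9 fibroblast markers summed to 91.7 CPM in aged CNV, 51.6 CPM in aged control, 631 CPM in young CNV and 192 CPM in young control, with 2 at 0 in aged control. The 11 dendritic markers summed to 2768 CPM in aged CNV, 3494 CPM in aged control, 7121 CPM in young CNV and 10999.8 CPM in young control, with 2, 3, 0 and 2 at 0. The dendritic list includes Cd74 and H2-DMb2, and a cluster of the class was itself led by Ms4a4c, H2-Aa and Ccr2. The dendritic sums therefore need not come from other cells. The part of these markers' RNA in the ratios of the 10 genes was not tested. In the cluster led by Spp1, Gpnmb and Fabp5 the 5 pigment cell genes Pmel, Mlana, Tyrp1, Dct and Rpe65 summed to 48.2 CPM in aged CNV, 19.5 CPM in aged control and 76.3 CPM in young CNV, and median UMIs per cell were 10317, 9988.5 and 17409.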

How the data were processed

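The deposited values are counts: UMIs per gene and cell from droplet libraries of retina and choroid, in 1 matrix of 24783 genes and 36701 cells. The build mm10, Cell Ranger and Seurat 4.1.1 are named per the submitters' processing notes, and the annotation is not given in the sources used here. Column prefixes gave the library, with 0 columns unmapped. Prefixes starting with y match the young labels, and those with e were taken for aged mice, the one age left. Doublets were called with Scrublet at a score of 0.2, which removed 276, 245, 303 and 276 cells in aged CNV, aged control, young CNV and young control. Cells were clustered in scanpy (version 1.11.5) on 2000 variable genes other than the 10 members, 40 components and 20 neighbours, by Leiden at resolution 1.0, with clusters of leukocytes clustered again, which gave 61 clusters. A cluster was named by its best-scoring markers, with at least 3 at 2-fold or more and a margin of 0.5 over the next class. Otherwise it stayed unnamed, as did 14.4% of cells in aged CNV, 16.3% in aged control, 15.8% in young CNV and 11.7% in young control. The doublet score, margin and naming thresholds were set after seeing the data.

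UMIs were summed per class and library. CPM carry exact Poisson intervals, shares exact Clopper-Pearson and ratios exact conditional binomial 95% intervals. UMIs from the same cell and animal are not independent, so intervals and floors of 3 counts cover counting error only. The size rule was 2-fold with at least 20 UMIs over both libraries, and the ratio code was tested on simulated data. Alternative scaling used edgeR 4.0.16 (trimmed means) and DESeq2 1.42.0 (median of ratios). From 6 lists of related genes the text names up to 4 per side whose interval lies past 2-fold. The members and lists were chosen with earlier results of these data known. Promoter sequences are from RefSeq. The authors' normalised values and cell types were not used here.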

Additional observations from a re-analysis of the deposited data

Results flagged for a closer look

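Cd9 in macrophage/monocyte-like cells moved in opposite directions after laser at the 2 ages: its log2 ratio of CNV over control was 2.17 in young and -0.60 in aged mice. The 1 library of each age went its own way, and the difference was not tested. The other gene of the set whose ratio lay below 1 after laser, Lpl, did so at both ages. In the cluster led by Spp1, Gpnmb and Fabp5, Cd9 was at 472 CPM in aged CNV and 805 CPM in aged control. With that cluster left out, the log2 ratios were -0.19 in young and -0.19 in aged mice.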

How the results depend on the processing

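No paired analysis was possible because each group had 1 library. Counts of genes past 2-fold in macrophage/monocyte-like cells stayed within 1.5 times in 50 of 56 alternatives for higher and 43 of 48 for lower ones. Cells picked by their own UMIs brought 4 genes higher and 1 lower in the young laser comparison (8 and 0 before) and 3 higher and 2 lower between controls (6 and 0 before). There Arg1 reversed to a log2 ratio of -1.16 in young mice after laser and Cd9 to -1.11 between controls, and the cause was not tested. Without the cluster led by Spp1, Gpnmb and Fabp5, an alternative chosen after seeing the data, 5 genes were higher in the young and 8 in the aged laser comparison, and 2 were higher and 1 lower between controls. Between CNV libraries 1 was then lower. Cd9 reversed to -0.19 in young mice after laser, and between controls Ctsd reversed to -0.26, Cd63 to -0.70, Cd9 to -0.99 and the median to -0.26. Between the CNV libraries 1 gene was lower without cells that had a pigment cell UMI, and 2 were higher at a fold of 1.5. Keeping predicted doublets, clustering with the 10 genes, resolution 2.0, thinning, either scaling, either gene filter and adding 4 unnamed clusters reversed no gene past 2-fold. Many ratios still moved outside their counting intervals. Over all alternatives 178 log2 ratios of the 10 genes did so, 6 reversed and 284 stayed. Adding the unnamed clusters moved 26 and left 13, and thinning moved 23 and left 16. The intervals thus do not cover the choice of processing. Depth limits Arg1 in both controls, with 7 and 2 UMIs.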
